A study of Drosophila melanogaster with 6 samples.

Results

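Neuropeptides and peptide hormones are short secreted signals that neurons and endocrine cells cut from larger precursor proteins, pack into dense-core vesicles and release onto G protein-coupled receptors or receptor guanylate cyclases. In the fly larva they come from neurons of the brain and ventral nerve cord, from the corpora cardiaca and other neurohemal organs, and from enteroendocrine cells scattered along the midgut epithelium. They set feeding, water balance, lipid use, gut movement and the sequence of behaviours by which the animal sheds its cuticle at each moult. Here 32 precursor genes were taken by symbol from the 17908 genes of the deposited table, and all 32 were present. They were read as 8 gut endocrine peptides, most of which neurons also make, 5 ecdysis peptides, 16 brain and neurohemal peptides and 3 genes named Nplp2 to Nplp4. Insulin-like peptides and prothoracicotropic hormone were not among them.

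Polyadenylated RNA of larvae was sequenced in 6 libraries, 2 for each of 3 genotypes. Control larvae had the genotype fiomut/cyo, a fio mutant chromosome over the balancer CyO, and are called wt in the labels although they carry a mutant copy. Mutant larvae were fiomut/fiomut with U6mut/U6+ on another chromosome, so they were homozygous for fio and heterozygous for a U6 mutation that the control genotype does not list. Rescue larvae had the same genotype plus an element written [U6+] on one fio chromosome, which the labels do not explain further. All 3 groups therefore carried at least 1 fio mutant chromosome. The series title names METTL16, an RNA m6A methyltransferase. Mutant and control differ in the number of fio mutant copies, among other things. By the labels, rescue and mutant differ only in the [U6+] element. Calls between rescue and mutant therefore do not show which genes depend on METTL16. The labels give no age, stage, sex or number of larvae per library, nor whether both libraries of a genotype were made from different larvae. The p-values therefore cover only how far these libraries vary, and that variation may be technical.

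The libraries held 15983161 to 17847161 counts. CG7544, the gene taken as METTL16, had 41 and 35 counts in the controls, 52 and 25 in the mutants and 22 and 46 in the rescue libraries, with no difference called (edgeR adjusted p = 0.875 for mutant against control). These counts therefore do not check the genotype labels. The mitochondrial large ribosomal RNA gene took 8.62 to 11.6% of the counts in control, 3.49 to 4.56% in mutant and 7.40 to 8.22% in rescue, and its part in the results was not tested. Levels are counts per 1e+06 counts of the library (CPM), with library sizes scaled by trimmed means, given in the order library 1, library 2 (n = 2 per group). A gene was called when edgeR's quasi-likelihood test, fitted to all 6 libraries, gave a Benjamini-Hochberg adjusted p under 0.05 over all 11866 genes tested. Because whole larvae were used, fewer cells of a type and less RNA per cell cannot be told apart.

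The members spanned a wide range of levels. Per length, on the deposited FPKM scale, the highest mean levels in control were those of Nplp4 at 1234 and Nplp2 at 1078, followed by CCHa2 at 32.6. The lowest of those with counts were amn at 0.107 and CCAP at 0.531. Apart from Nplp2, Nplp4 and CCHa2, no member passed 772 counts in a library, which limits the size of difference that could be detected. Of the 32 genes 28 passed the filter on low counts, and the other 4 were ETH, Lk, Pburs and Nplp3.

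ETH and Lk, the genes for ecdysis-triggering hormone and the diuretic peptide leucokinin, had 0 counts in all 6 libraries. In the reference annotation 90.5% of the exon bases of ETH (2R, 24794670 to 24795482, minus strand) and 93.0% of those of Lk (3L, 14560139 to 14560764, minus strand) lie under exons of an antisense RNA gene on the opposite strand. Among protein-coding genes with 90% or more of their exon bases shared with the opposite strand, 94 of 119 (79.0%) were at 0 in all libraries. Among those with no shared base it was 740 of 9987 (7.4%). A count of 0 would allow up to 0.168 to 0.188 CPM for a gene whose reads are counted, but it cannot be read as a low level of these transcripts. Smaller overlaps with genes on the opposite strand touched SIFa (21.1% of exon bases), ITP (6.3%), CCAP (6.2%) and amn (3.5%), so their counts are less certain. Exons of the other 26 members shared no base with another gene, although Dh31 holds the protease gene Bace within its span on the same strand.

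Most peptide genes of the gut endocrine cells were highest in mutant larvae. Mutant and control larvae differ in the second fio copy, in the balancer and in the U6 mutation, which this comparison cannot separate. Of the 8 gut endocrine genes 6 rose in mutant and none fell, namely Tk, Mip, Dh31, CCHa1, AstA and CCHa2, beside 9.94% of all genes tested called higher. The 6 rose by 1.41 to 2.54 on the log2 scale, and the median of the 8 was 1.48 beside -0.02 over all genes tested. In the same 6 genes, by the same values, both mutant libraries lay above all 4 other libraries in CPM, which held for 22.1% of the genes tested.

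Tk (3R, 11994175 to 12005473), the tachykinin precursor whose gut peptides are known to hold down lipid synthesis in enterocytes, had 48 and 55 counts in the controls, 354 and 307 in the mutants and 87 and 116 in the rescue libraries. In CPM these were 3.61 and 3.23, 21.4 and 18.3, and 4.96 and 6.33. The mutant libraries stood far above the other 4, and the rescue libraries lay above both controls. Tk rose by 2.54 in mutant on the log2 scale (SE 0.27, edgeR adjusted p = 0.00162) and fell by 1.81 from mutant to rescue (SE 0.25, edgeR adjusted p = 0.00585). Rescue remained 0.72 above control on the log2 scale without passing the test (SE 0.26, edgeR adjusted p = 0.204).

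Mip (3L, 17344947 to 17349666), the precursor of myoinhibiting peptides, had 28 and 90 counts in the controls, 252 and 299 in the mutants and 50 and 52 in the rescue libraries, or 2.10 and 5.28, 15.2 and 17.9, and 2.85 and 2.84 CPM. The controls differed between themselves, and the rescue libraries fell between them. Mip rose by 2.15 (SE 0.42, edgeR adjusted p = 0.0165) and fell by 2.54 from mutant to rescue (SE 0.42, edgeR adjusted p = 0.0108). Dh31 (2L, 8491868 to 8506845), a diuretic hormone of the calcitonin family that also drives midgut contractions, had 41 and 82 counts in the controls, 279 and 240 in the mutants and 61 and 76 in the rescue libraries. Its levels of 3.08 and 4.82, 16.9 and 14.3, and 3.48 and 4.15 CPM put the rescue libraries within the control range. It rose by 1.97 (SE 0.31, edgeR adjusted p = 0.00741) and fell by 2.03 from mutant to rescue (SE 0.31, edgeR adjusted p = 0.00761).

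AstA (3R, 24760530 to 24765071) encodes allatostatin A, which restrains feeding. It had 58 and 89 counts in the controls, 247 and 179 in the mutants and 96 and 110 in the rescue libraries, or 4.36 and 5.23, 14.9 and 10.7, and 5.47 and 6.01 CPM. Both rescue libraries lay just above both controls and well below both mutants. AstA rose by 1.41 (SE 0.28, edgeR adjusted p = 0.0179) and fell by 1.16 from mutant to rescue (SE 0.28, edgeR adjusted p = 0.0332).

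Both CCHamide genes rose in mutant, from mean control levels of 32.6 FPKM for CCHa2 and 1.12 FPKM for CCHa1. CCHa2 (3R, 13389059 to 13395197), a nutrient-responsive hormone of gut and fat body that acts on the insulin-producing cells, had 527 and 945 counts in the controls, 2643 and 1561 in the mutants and 1260 and 824 in the rescue libraries. These were 39.6 and 55.5, 159.9 and 93.2, and 71.8 and 45.0 CPM, so the mutant libraries were apart from each other as well as above the rest. CCHa2 rose by 1.41 (SE 0.35, edgeR adjusted p = 0.0348), and its difference of -1.12 from mutant to rescue did not pass (SE 0.35, edgeR adjusted p = 0.0692). CCHa1 (3R, 14092504 to 14096835) had only 13 and 16 counts in the controls, 45 and 48 in the mutants and 15 and 22 in the rescue libraries, or 0.977 and 0.939, 2.72 and 2.87, and 0.855 and 1.20 CPM. Its increase of 1.54 stood at the threshold (SE 0.43, edgeR adjusted p = 0.0499), and its difference from mutant to rescue was -1.43 (SE 0.42, edgeR adjusted p = 0.0596).

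NPF and AstC did not follow so plainly. NPF (3R, 16609220 to 16611325), whose peptide is an insect relative of neuropeptide Y, had 2.78 and 1.35 CPM in the controls, 2.66 and 5.14 in the mutants and 1.42 and 1.26 in the rescue libraries, from 23 to 86 counts. The mutant range overlapped the control range and lay above the rescue range. Its log2 difference was 0.93 for mutant against control (SE 0.50, edgeR adjusted p = 0.235) and -1.54 for rescue against mutant (SE 0.51, edgeR adjusted p = 0.0821). AstC (2L, 11076165 to 11081399), the allatostatin C precursor, had 360 and 22 counts in the controls, 269 and 154 in the mutants and 27 and 36 in the rescue libraries, or 27.1 and 1.29, 16.3 and 9.20, and 1.54 and 1.96 CPM. Control 1 was the highest library of all and control 2 the lowest. Mutant against control gave -0.14 (SE 1.02, edgeR adjusted p = 0.934), and without control 1 it gave 3.30 (edgeR adjusted p = 0.00854). Rescue against mutant was -2.85 (SE 1.14, edgeR adjusted p = 0.129) and passed without control 1 or control 2 (edgeR adjusted p = 0.00318 and 0.00302).

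**Figure D1:**
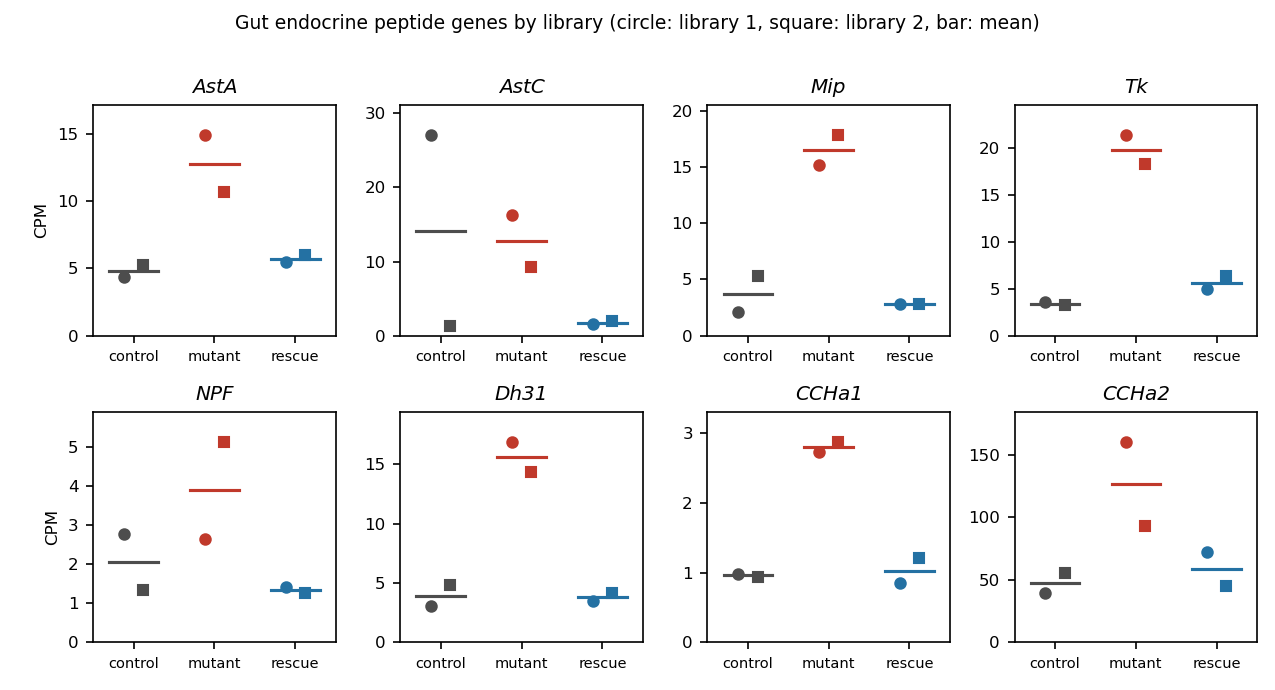
CPM (vertical axis, from 0) of the 8 gut endocrine peptide genes in each library, by group (horizontal axis); circles are library 1, squares library 2 and bars the mean of 2. In 6 panels both mutant libraries lie above the other 4, in NPF the mutant and control ranges overlap, and in AstC control 1 at 27.1 CPM stands far above control 2 at 1.29.

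From mutant to rescue 4 of the 8 gut endocrine genes fell and none rose, namely Tk, Mip, Dh31 and AstA, beside 8.47% of all genes tested called lower. All 8 log2 differences were negative, with a median of -1.67 beside 0.00 over all genes tested. This comparison shares the mutant libraries with the one against control, so the values of each are given side by side. Between rescue and control edgeR called none of the 8, beside only 0.640% of all genes tested called by edgeR, so few calls were to be had. Tk and AstC had an unadjusted p under 0.05, and DESeq2 called 0 of the 8. The median log2 difference was 0.02 beside 0.07 over all genes tested.

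Single libraries decided several of these calls. Without mutant 1 the call on Tk alone remained among the 6 that rose, and without mutant 2 those on Tk, Dh31 and AstA remained. Without control 2 the calls on CCHa1 and CCHa2 were lost, and without control 1 the same pair was lost. The call on CCHa1 was also lost without rescue 1 (edgeR adjusted p = 0.0882), without rescue 2 (0.0903) and in 10 of 14 alternatives altogether. From mutant to rescue none of the 4 was called without mutant 1, Tk and Dh31 were called without mutant 2 or without rescue 2, and Tk, Mip and Dh31 without rescue 1. Without control 2 the rise of Mip was 2.97 in place of 2.15. The direction of the 6 increases and the 4 decreases was the same in all 14 alternatives.

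Other midgut genes also rose in mutant. Of 16 enterocyte genes, mostly for digestive enzymes and all tested, 11 rose in mutant and none fell, beside 9.94% of all genes called higher. The median log2 difference was 3.02. From mutant to rescue 7 fell, beside 8.47% called lower, with a median of -1.76. Between rescue and control edgeR called 1 higher, beside 0.354%, and DESeq2 called 7 higher. The edgeR median was 0.94. The protease gene Jon99Ciii, among the 4 of highest level, differed by 1.75 in mutant without passing (edgeR adjusted p = 0.109). The lysozyme gene LysS rose by 5.14 in mutant (edgeR adjusted p = 0.000668), the protease gene Jon65Aiii by 2.98 (edgeR adjusted p = 0.00162) and the trypsin gene betaTry by 3.79 (edgeR adjusted p = 0.00745), the last not called without mutant 1 (0.0589) and 4.70 without control 1. Their summed level was 2430 to 3529 CPM in control, 19110 to 19270 in mutant and 3557 to 6222 in rescue, and none was at 0. The summed level of the 8 gut endocrine peptides was 77.6 to 83.6, 171.6 to 250.0 and 68.7 to 92.4 CPM in the same groups. The list of genes linked to enteroendocrine fate (pros, IA-2, esg, Poxn, sc, phyl and nerfin-1) went the other way except for IA-2. Most of these genes are also active in neurons or sensory organ precursors. Of these 7 genes 3 fell in mutant and none rose, beside 7.04% of all genes tested called lower, with a median of -1.31. The summed level was 219 to 294 CPM in control, 200.9 to 276.6 in mutant and 217 to 284.6 in rescue. IA-2, a dense-core vesicle protein gene, differed by 0.80 in mutant without passing (edgeR adjusted p = 0.0639), although DESeq2 called it higher. The gene esg differed by -0.21 (edgeR adjusted p = 0.677). The neural fate gene pros fell by 1.31 (edgeR adjusted p = 0.0387) and nerfin-1 by 1.92 (edgeR adjusted p = 0.00574). The call on pros was lost without control 2, mutant 1 or mutant 2. Among markers of other tissues 5 of 12 muscle genes, 2 of 7 fat body genes and 1 of 6 glial genes fell in mutant and none rose, beside 7.04% of all genes tested called lower, with medians of -1.07, -0.51 and -0.29. The summed level of the muscle genes was 52880 to 89530 CPM in control, 35260 to 36090 in mutant and 19790 to 21800 in rescue. The part of a larger share of midgut RNA in the rise of the peptide genes was not tested.

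The brain and neurohemal peptides did not shift together. Of the 16 genes, 15 of which were tested, 1 rose in mutant and none fell, beside 9.94 and 7.04% of all genes tested called in those directions. Both mutant libraries lay above the other 4 in 3 of the 15 and below them in 2, which held for 22.1 and 20.7% of all genes tested. The median log2 difference was -0.37, with values from -1.15 to 2.13. Between mutant and rescue 2 rose and 1 fell, beside 7.61 and 8.47% of all genes tested, with a median of 0.15. For mutant against control 3 were higher and 3 lower at an unadjusted p under 0.05, and DESeq2 called 2, sNPF and amn. The shares of calls given above are those of edgeR and cannot be set against these unadjusted and DESeq2 counts.

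The gene that rose was sNPF (2L, 20027915 to 20056373), whose short neuropeptide F promotes feeding and growth and is made by many brain neurons and also by midgut endocrine cells. It had 46 and 56 counts in the controls, 141 and 129 in the mutants and 62 and 82 in the rescue libraries, or 3.46 and 3.29, 8.53 and 7.70, and 3.53 and 4.48 CPM. Both mutant libraries were at about the same level and above the other 4. sNPF rose by 1.27 (SE 0.28, edgeR adjusted p = 0.0247) and fell by 1.02 from mutant to rescue (SE 0.28, edgeR adjusted p = 0.0473). The increase was no longer called without mutant 1, mutant 2 or control 2, and the decrease without any single mutant or rescue library.

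Akh and amn had a like pattern without passing the test. Akh (3L, 4141467 to 4142070), the glucagon-like adipokinetic hormone made by the corpora cardiaca, had 28 and 43 counts in the controls, 93 and 120 in the mutants and 24 and 80 in the rescue libraries. At 2.10 and 2.52, 5.62 and 7.16, and 1.37 and 4.37 CPM, the mutant libraries were highest, rescue 1 was below both controls and rescue 2 above them. The log2 difference of mutant against control was 1.46 (SE 0.53, edgeR adjusted p = 0.0998), and it passed without rescue 1 or rescue 2 (edgeR adjusted p = 0.0389 and 0.0444) or in a fit of those 2 groups alone (0.0385). amn (X, 19886108 to 19890060), known from a memory mutant and related to vertebrate PACAP, had 2 and 12 counts in the controls, 25 and 41 in the mutants and 16 and 21 in the rescue libraries, a difference of 2.13 for mutant against control (SE 0.69, edgeR adjusted p = 0.0759) that was 3.66 and passed without control 2 (0.0465).

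Crz and ITP were highest in rescue. Crz (3R, 14314854 to 14315716) encodes corazonin, a stress-related neuropeptide akin to gonadotropin-releasing hormone. It had 42 and 75 counts in the controls, 36 and 37 in the mutants and 125 and 185 in the rescue libraries, or 3.16 and 4.40, 2.18 and 2.21, and 7.12 and 10.1 CPM. The 3 groups did not overlap, with mutant lowest and rescue highest. Crz rose by 1.97 from mutant to rescue (SE 0.33, edgeR adjusted p = 0.0113), and its differences of -0.79 for mutant against control and 1.18 for rescue against control did not pass (edgeR adjusted p = 0.148 and 0.116). The rise was not called without mutant 1, mutant 2 or rescue 2 (edgeR adjusted p = 0.0867, 0.0735 and 0.0738).

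ITP (2R, 24537421 to 24558961), the ion transport peptide that limits water loss, had 349 and 424 counts in the controls, 454 and 456 in the mutants and 772 and 761 in the rescue libraries. Levels were 26.2 and 24.9, 27.5 and 27.2, and 44.0 and 41.5 CPM, so control and mutant were close and both rescue libraries stood above them. ITP rose by 0.65 from mutant to rescue (SE 0.18, edgeR adjusted p = 0.0487), and this call was lost in 12 of 14 alternatives, among them leaving out any single library. Rescue against control was 0.74 (SE 0.18, edgeR adjusted p = 0.0887), called by DESeq2 (adjusted p = 0.0167).

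The remaining brain and neurohemal peptides were called in no comparison. Hug, whose hugin peptides curb feeding, had 8.72 and 8.22 CPM in the controls, 3.21 and 5.91 in the mutants and 9.52 and 7.92 in the rescue libraries, with both mutant libraries lowest (mutant against control -0.89, SE 0.34, edgeR adjusted p = 0.112). Capa, the source of peptides that act on the Malpighian tubules, had 5.41 and 7.63, 3.27 and 3.52, and 3.30 and 6.66 CPM (-0.94, SE 0.40, edgeR adjusted p = 0.145). FMRFa, which encodes FMRFamide-related peptides, had 4.81 and 5.58, 2.54 and 3.10, and 2.45 and 3.77 CPM (-0.88, SE 0.35, edgeR adjusted p = 0.123). In Hug the groups separated as low in mutant against both others, whereas in FMRFa both mutant and rescue were below both controls. SIFa, the SIFamide precursor, had 20 and 49 counts in the controls, 23 and 10 in the mutants and 22 and 52 in the rescue libraries, a log2 difference of -1.15 for mutant against control (SE 0.64, edgeR adjusted p = 0.251). In CPM both mutant libraries of SIFa, at 1.39 and 0.597, lay below both controls, and rescue 1 at 1.25 lay between the mutants.

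The diuretic hormone gene Dh44, Ms (myosuppressin, which quiets visceral muscle), Proc (proctolin, which excites muscle), Nplp1, Pdf (the clock neuropeptide) and Dsk (the satiety peptide drosulfakinin) lay within overlapping ranges of mutant and control. Mean levels in control and mutant (± SD, n = 2) were 6.10 ± 0.407 and 5.55 ± 2.80 CPM for Dh44, 5.83 ± 2.18 and 6.30 ± 1.73 for Ms, and 14.4 ± 2.82 and 11.1 ± 2.66 for Proc. They were 20.2 ± 5.02 and 21.7 ± 7.79 CPM for Nplp1, 3.33 ± 1.52 and 2.13 ± 0.958 for Pdf, and 1.09 ± 0.696 and 0.811 ± 0.120 for Dsk. Their log2 differences of mutant against control ran from -0.65 for Pdf to 0.12 for Ms. Their SEs ran from 0.27 for Proc to 0.68 for Dsk, which had 8 to 29 counts.

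**Figure D2:**
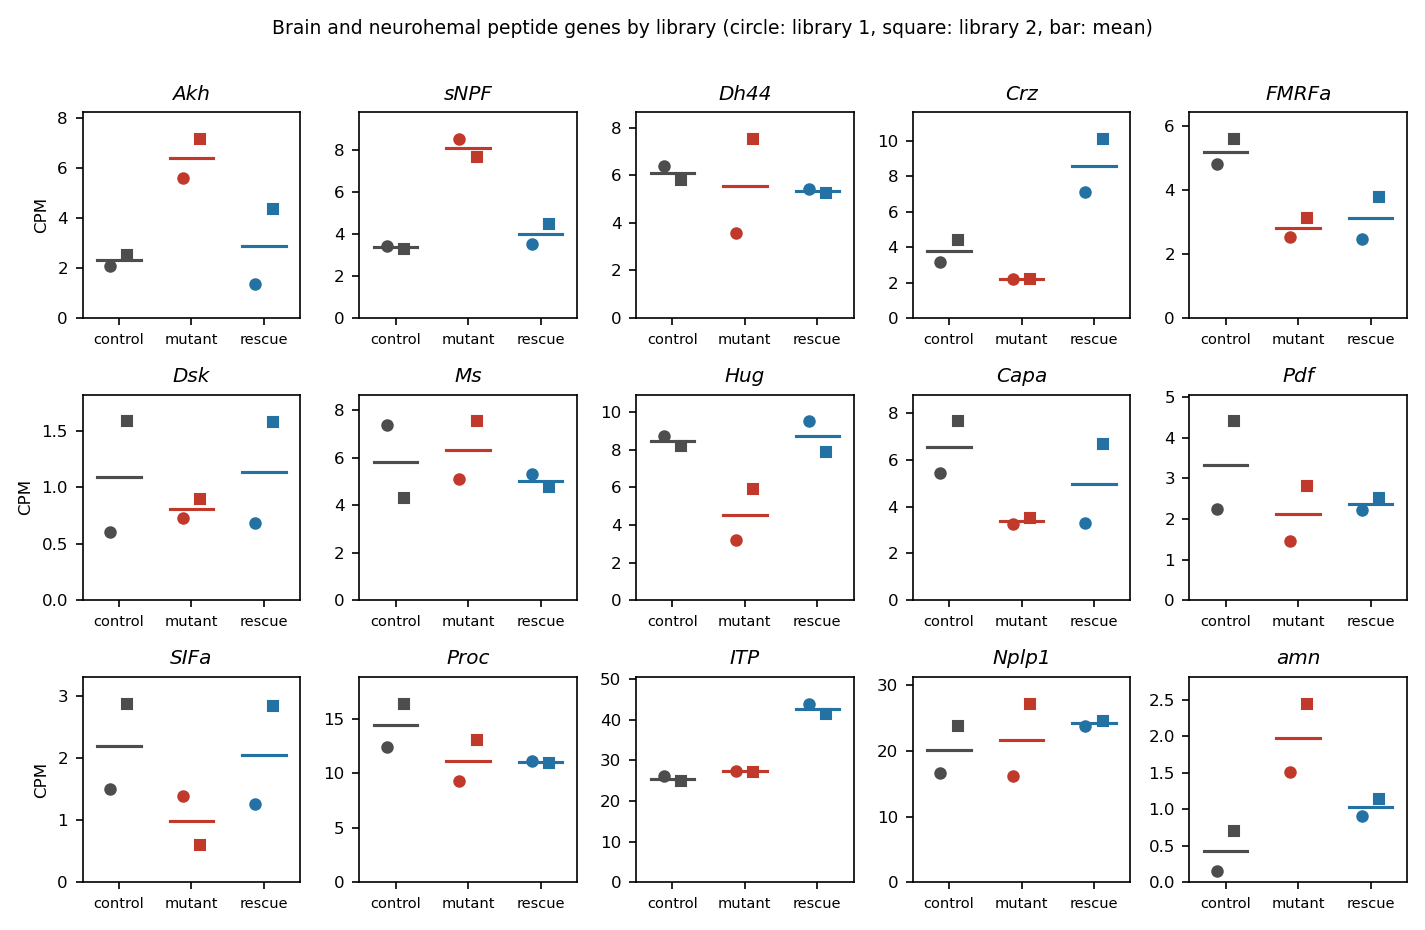
CPM (vertical axis, from 0) of the 15 brain and neurohemal peptide genes with counts in each library, by group (horizontal axis); circles are library 1, squares library 2 and bars the mean of 2. sNPF, Akh and amn have both mutant libraries on top, Crz and Hug have both at the bottom, and ITP is highest in the rescue libraries at 44.0 and 41.5 CPM.

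Of 18 neuron markers 5 fell in mutant and 1 rose, beside 7.04 and 9.94% of all genes tested, with a median of -0.84, and from mutant to rescue 4 rose, beside 7.61%, with a median of 0.50. Their summed level was 514 to 563 CPM in control, 422 to 526.5 in mutant and 524 to 634 in rescue, with none at 0. Among the 4 of highest level, the neuron markers Syt1 and cpx differed by 0.07 and -0.34 in mutant without passing (edgeR adjusted p = 0.871 and 0.269). The RNA-binding protein gene elav, a marker of all neurons, fell by 1.02 in mutant (edgeR adjusted p = 0.0397), while the synaptic vesicle priming gene unc-13 rose by 1.08 (edgeR adjusted p = 0.0282). Both calls were lost without control 2 or mutant 2, that on elav also without mutant 1 and that on unc-13 also without control 1. The summed level of the 16 brain and neurohemal peptides was 101 to 116 CPM in control, 92.0 to 119 in mutant and 122 to 132.5 in rescue. The part of the neuronal share of RNA in the differences of Hug, Capa and FMRFa was not tested. Library 1 was below library 2 in 10 of 15 of these peptide genes in control, 12 in mutant and 10 in rescue. The medians of library 1 minus library 2 were -0.39, -0.34 and -0.29 on the log2 scale. Over all 11866 genes tested library 1 was below in 6082, 5894 and 5853, with medians of -0.02, 0.01 and 0.01.

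Among the ecdysis peptides none was called in any comparison, by edgeR or by DESeq2, and none had an unadjusted p under 0.05. Eclosion hormone, crustacean cardioactive peptide and the heterodimeric hormone bursicon (Burs with Pburs) act in sequence after ecdysis-triggering hormone. Eh had 6 and 20 counts in the controls, 11 and 10 in the mutants and 12 and 14 in the rescue libraries. CCAP, which midgut endocrine cells also make, had 9 and 11, 20 and 27, and 11 and 16 counts. Both mutant libraries of CCAP, at 1.21 and 1.61 CPM, lay above the other 4, yet the log2 difference of 1.09 did not pass (SE 0.52, edgeR adjusted p = 0.186). Burs had 9 and 28, 43 and 23, and 11 and 37 counts and overlapped between all groups. Pburs had 8 and 8, 1 and 9, and 9 and 9 counts, too few for the filter. With no filter it was not called in any comparison (edgeR adjusted p = 0.651, 0.677 and 0.999). The SEs of Eh and Burs for mutant against control were 0.64 and 0.71, and a p that misses the threshold does not show that their levels were alike.

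Of the receptors of these peptides ETHR and rk were called, beside 17.0% of all genes tested, whereas CCAP-R, the receptor of crustacean cardioactive peptide, was not (log2 difference 1.05 for mutant against control, edgeR adjusted p = 0.159, named after its values were seen). ETHR, the receptor of ecdysis-triggering hormone, had 179 and 269 counts in the controls, 52 and 115 in the mutants and 345 and 244 in the rescue libraries. rk, the bursicon receptor whose loss blocks tanning and wing expansion, had 9 and 49, 2 and 3, and 85 and 58 counts. In both genes the mutant libraries were lowest. ETHR fell by 1.55 in mutant (edgeR adjusted p = 0.0388) and rose by 1.72 to rescue (edgeR adjusted p = 0.0300), and rk fell by 3.53 (edgeR adjusted p = 0.0335) and rose by 4.67 (edgeR adjusted p = 0.0136). The calls for mutant against control were lost without control 2 or mutant 1, that on ETHR also without control 1 and that on rk also without mutant 2. From mutant to rescue both were lost without mutant 1, ETHR also without rescue 1 and rk without mutant 2. The log2 difference of rk for mutant against control was -2.12 without control 2 and -4.19 without control 1, and -0.35 on log2(FPKM + 1). Without mutant 2 the differences of ETHR were -2.22 and 2.39. Of 18 ecdysone-response genes, all tested, 7 fell in mutant and none rose, with a median of -1.76 (7.04% of all genes tested were called lower). From mutant to rescue 9 of the 18 rose and 1 fell, beside 7.61 and 8.47% of all genes tested, with a median of 2.12. Their summed level was 1948 and 4056 CPM in the controls, 565.8 and 971 in the mutants and 6680 and 6190 in the rescue libraries. The part of developmental stage in the ecdysis receptor values was not tested.

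Nplp2 and Nplp4 were the most abundant members per length and differed in pattern. The NPLP precursors were named from peptide surveys of the fly nervous system. Nplp2 (3L, 13356376 to 13357223) had 10170 and 9254 counts in the controls, 23084 and 13760 in the mutants and 4371 and 1621 in the rescue libraries, or 764 and 543, 1396 and 822, and 249 and 88.5 CPM. The 3 groups did not overlap, with mutant highest and rescue lowest. It fell by 2.72 from mutant to rescue (SE 0.53, edgeR adjusted p = 0.0179). The differences of 0.76 for mutant against control and -1.95 for rescue against control did not pass (edgeR adjusted p = 0.322 and 0.109). Without rescue 1 the difference was -3.65, and the fall was not called without mutant 1 or mutant 2 (edgeR adjusted p = 0.11 and 0.058).

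Nplp4 (2L, 2008414 to 2009072) had 12956 and 5345 counts in the controls, 2518 and 2135 in the mutants and 3601 and 3116 in the rescue libraries, or 974 and 314, 152 and 128, and 205 and 170 CPM. Control 1 was far above control 2, and all mutant and rescue libraries lay below both. Nplp4 fell by 2.20 in mutant (SE 0.50, edgeR adjusted p = 0.0258) and stayed low in rescue, with a log2 difference of 0.42 from mutant (SE 0.48, edgeR adjusted p = 0.566) and of -1.78 from control (SE 0.49, edgeR adjusted p = 0.118). The difference was -1.16 without control 1 (edgeR adjusted p = 0.0311) and -2.80 without control 2 (edgeR adjusted p = 0.00294). The fall was not called without mutant 1 or mutant 2 (edgeR adjusted p = 0.136 and 0.152), and rescue against control was called without control 2 (0.011). Nplp3 had 5 and 4 counts in control, 0 in both mutant libraries and 0 and 1 in rescue, below the filter, and was not called without it (edgeR adjusted p = 0.163).

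**Figure D3:**
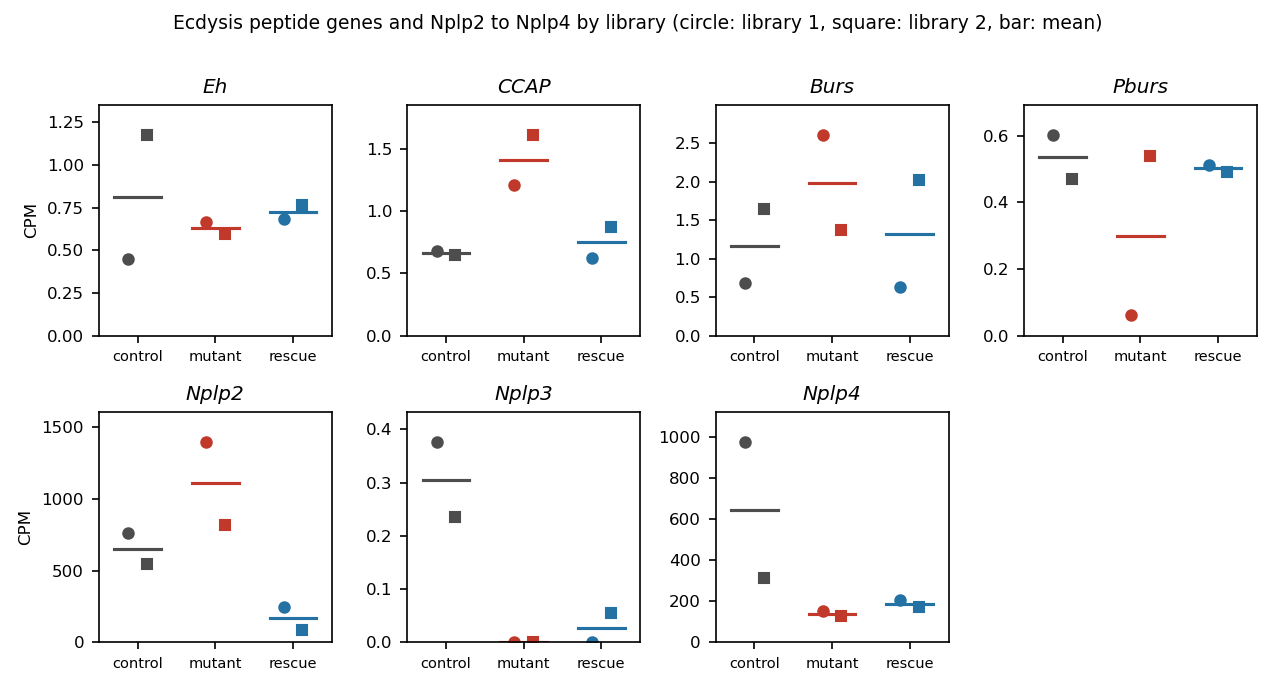
CPM (vertical axis, from 0) of the 4 ecdysis peptide genes with counts and of Nplp2, Nplp3 and Nplp4 in each library, by group (horizontal axis); circles are library 1, squares library 2 and bars the mean of 2. The ecdysis genes stay below 2.7 CPM and mostly overlap, Nplp2 separates into 3 levels, and Nplp4 is lower in all mutant and rescue libraries than in both controls.

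Over all 32 members 7 rose and 1 fell in mutant against control, or 8 calls among 28 tested beside 17.0% of all genes tested, and 2 rose and 6 fell in rescue against mutant, or 8 calls beside 16.1%. Rescue against control gave 0 calls by edgeR beside 0.640% of all genes tested (0.354% higher and 0.287% lower). In that comparison 6 members had an unadjusted p under 0.05, and DESeq2 called 4, Crz and ITP higher and Nplp2 and Nplp4 lower in rescue. Of the 7 increases in mutant 6 were gut endocrine genes.

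**Figure D4:**
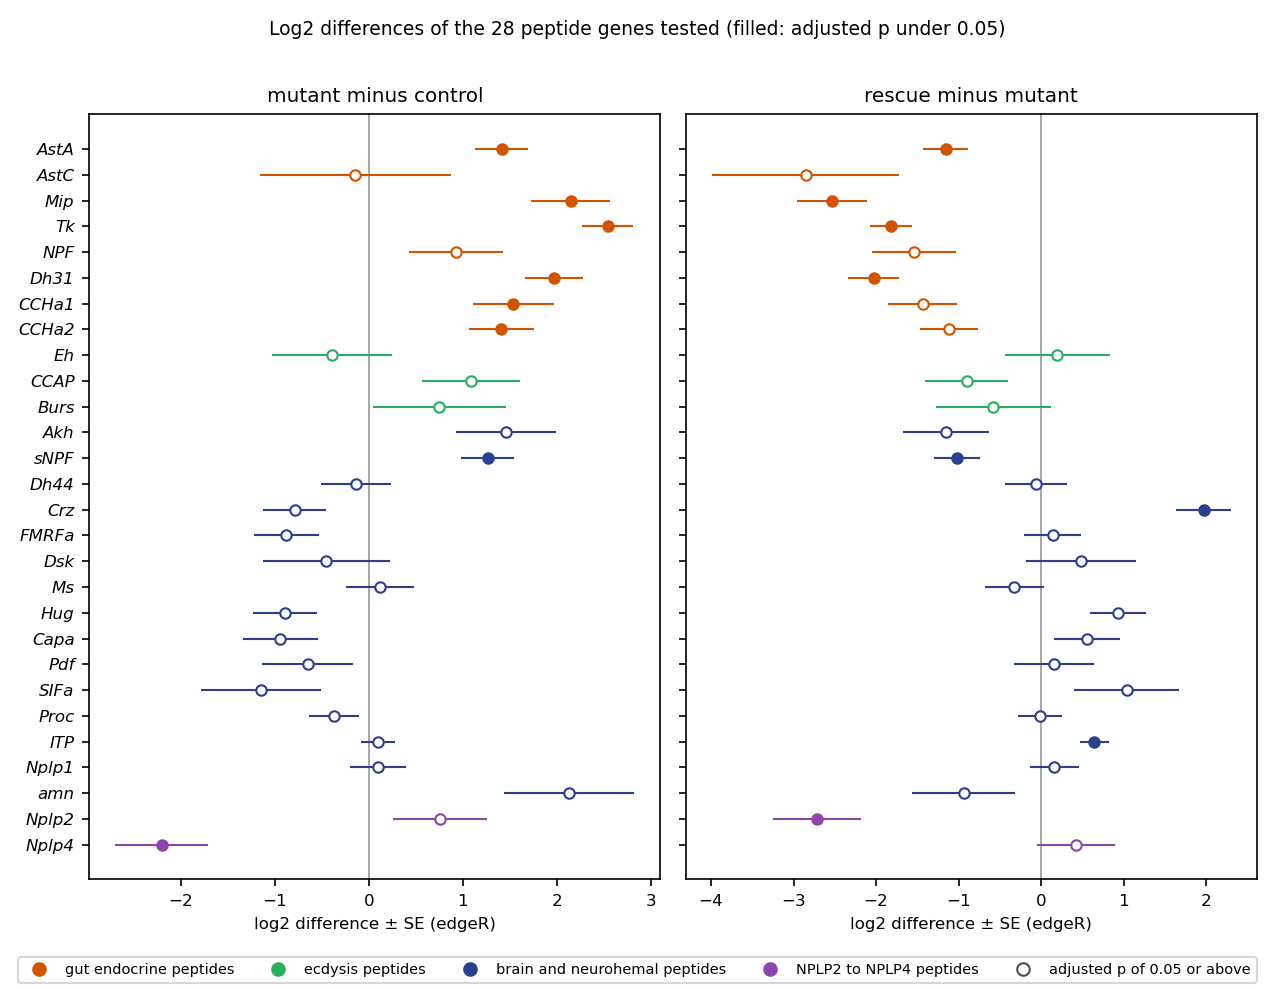
Log2 difference ± SE from the edgeR fit (horizontal axes) of the 28 peptide genes tested (vertical axis), for mutant minus control (left) and rescue minus mutant (right); filled points have an adjusted p under 0.05 and colours give the groups of peptides. The gut endocrine genes lie at 0.93 to 2.54 on the left except AstC at -0.14, and at -2.85 to -1.12 on the right, whereas the brain genes lie on both sides of 0.

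Of 33 receptor genes, 32 of which were tested, 5 rose and 2 fell in mutant, and 3 rose and 6 fell from mutant to rescue, with medians of 0.24 and -0.33. The shares of all genes tested that rose or fell were 9.94 and 7.04% in mutant and 7.61 and 8.47% from mutant to rescue. Dh31-R, the receptor of the Dh31 hormone, had 154 and 138 counts in the controls, 459 and 510 in the mutants and 124 and 110 in the rescue libraries. It rose by 1.57 (edgeR adjusted p = 0.00889) and fell by 2.15 (edgeR adjusted p = 0.00368), so that ligand and receptor transcripts of this pair were both highest in mutant. This did not hold for every pair. At an unadjusted edgeR p under 0.05, 5 receptors were higher and 5 lower in mutant. The lower ones included sNPF-R and CCHa2-R, named after their values were seen, although sNPF and CCHa2 rose. Dh44-R2, a receptor of the Dh44 hormone, rose by 0.98 (edgeR adjusted p = 0.0252) and fell by 1.09 (edgeR adjusted p = 0.0191). CapaR, the tubule receptor of Capa peptides, had 11 and 7, 79 and 59, and 27 and 21 counts and rose by 2.76 (edgeR adjusted p = 0.0129), while Capa itself did not pass. Gyc76C, a receptor guanylate cyclase, rose by 1.51 and fell by 2.28 (edgeR adjusted p = 0.0199 and 0.00587). Pdfr, the receptor of the clock peptide, rose by 1.21 and fell by 2.32 (edgeR adjusted p = 0.0439 and 0.00668). PK2-R2, a pyrokinin receptor, rose by 0.91 from mutant to rescue (edgeR adjusted p = 0.0480), a call lost in 9 of 14 alternatives, among them leaving out any 1 mutant or rescue library. In rescue against control edgeR called none of the 32, beside 0.640% of all genes tested called by edgeR. In that comparison 7 had an unadjusted p under 0.05 and 4 were called by DESeq2. Without mutant 1 none of the 7 receptor calls for mutant against control remained, and without mutant 2 only that on ETHR did. Without control 2 those on Gyc76C, Dh44-R2 and Pdfr were lost, and that on Pdfr also without control 1. From mutant to rescue the call on Dh44-R2 was lost whenever 1 mutant or rescue library was left out and that on Pdfr without mutant 1.

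Of 14 genes for prohormone processing and dense-core vesicles, 13 of which were tested, edgeR called 1 higher in mutant, beside 9.94% of all genes tested. The median was 0.20. From mutant to rescue edgeR called 2 lower, beside 8.47%. At an unadjusted edgeR p under 0.05, 5 were higher and 1 lower in mutant, and 4 were lower from mutant to rescue. DESeq2 called 4 higher in mutant (IA-2, Fur1, Pal2 and Sytalpha) and 4 lower from mutant to rescue. The shares of all genes given above are of edgeR calls and cannot be set against these unadjusted and DESeq2 counts. The gene that edgeR called higher in mutant was Pal2, a lyase of peptide amidation. It had 186 and 252 counts in the controls, 437 and 427 in the mutants and 245 and 275 in the rescue libraries. It rose by 0.85 (edgeR adjusted p = 0.0282) and fell by 0.84 from mutant to rescue (edgeR adjusted p = 0.0307). Syt7, a calcium sensor of vesicle release, fell by 1.23 from mutant to rescue (edgeR adjusted p = 0.0282). The prohormone convertase gene amon, which cuts most neuropeptide precursors, was not called for mutant against control or rescue against mutant (edgeR adjusted p = 0.245 and 0.371) and was named after its values were seen. The calls on Pal2 were lost whenever 1 mutant or rescue library was left out, the increase also without either control, and that on Syt7 without mutant 1, rescue 1 or rescue 2. Among 5 neprilysin genes, 4 of which were tested, Nep2, a peptidase that degrades secreted peptides, rose by 1.29 from mutant to rescue (edgeR adjusted p = 0.0132), a call lost without mutant 1, mutant 2 or rescue 2. No neprilysin was called for mutant against control by edgeR or DESeq2, with 1 at an unadjusted p under 0.05. Of 7 further peptide precursor genes matched, 6 of which were tested, CNMa fell by 1.98 from mutant to rescue (edgeR adjusted p = 0.0429), from 36 and 27 to 11 and 6 counts, a call lost whenever 1 mutant or rescue library was left out. None of these 6 was called for mutant against control by edgeR or DESeq2, and 1 had an unadjusted p under 0.05.

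**Figure D5:**
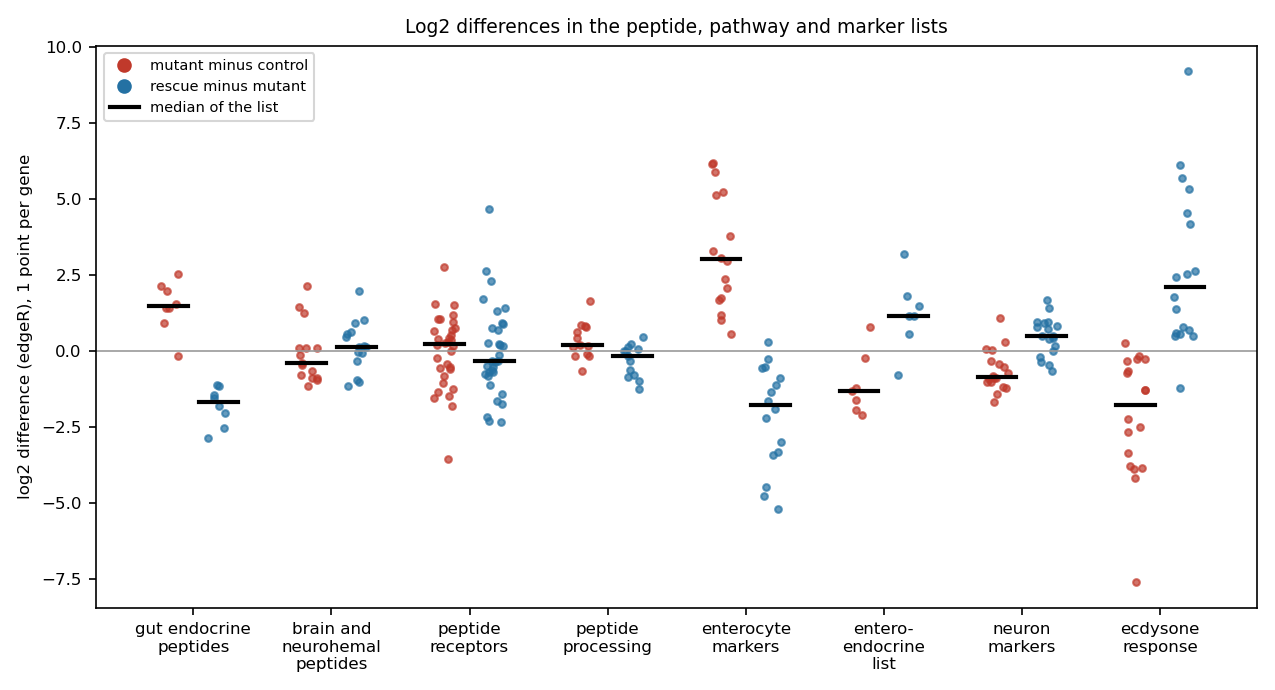
Log2 differences from the edgeR fit (vertical axis), 1 point per gene, for mutant minus control (red) and rescue minus mutant (blue) in the gut and brain peptide lists, receptors, processing genes and the marker lists (horizontal axis); black bars are medians. The gut endocrine peptides have medians of 1.48 and -1.67 and the enterocyte markers of 3.02 and -1.76, whereas the brain peptides have medians of -0.37 and 0.15 and the neuron markers of -0.84 and 0.50.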

How the data were processed

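Per the file headers, the deposited gene table gives whole-number read counts per gene with NCBI gene identifiers; the authors' FPKM table gives the same counts per kilobase and per 1e+06 of a library-specific size, and was used here for levels between genes and 2 alternatives. The aligner, counting tool, strand setting and genome build were not given in the sources used here. In all, 17669 of 17908 genes have an identifier in the RefSeq table of Release 6, and 99.5% of those share its start. Exon overlaps come from the Ensembl BDGP6 annotation, matched by symbol. Counts were tested with edgeR 4.0.16 in R 4.3.3 (TMM factors, filterByExpr with a minimum count of 10, glmQLFit by group on 6 libraries, no block), leaving 11866 genes; log2 differences are those of the fit, with SE as the difference over the root of F. The test was checked on simulated data. Within groups the 2 libraries differed by more than counting noise (chi-square per degree of freedom 109, 61.9 and 56.9), so neither was taken for a second deposit of the other. This does not show that they are separate animals.

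Members and lists were chosen with earlier results of these data known. All 32 members are reported; of the pathway lists, called genes were named, at most 4 a direction by smallest p, and of the marker lists at most 4 by highest level. The 14 alternatives were RLE factors, DESeq2 1.42.0, no filter, at least 1 CPM in 2 libraries, 2 groups alone, a replicate block, each of 6 libraries left out, and limma 3.58.1 on log2(FPKM + 0.1) and log2(FPKM + 1). One listed gene, NtlN, was not matched. Limits for counts of 0 (3 counts) cover counting error only.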

Additional observations from a re-analysis of the deposited data

How the results depend on the processing

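All 8 member calls for mutant against control and all 8 for rescue against mutant kept their sign in 14 alternatives, but leaving out libraries left 1 to 8 and 0 to 10 calls, and 0 to 2 for rescue against control. For the gut endocrine genes these were 1 to 5, 0 to 7 and 0 to 1, and for the brain and neurohemal genes 0 to 2 and 0 to 2 in the first pair of comparisons. Over all genes they were 611 to 1930, 400 to 2504 and 12 to 778 calls. The gut endocrine genes had 7 calls for rescue against mutant with DESeq2 and with 2 groups alone. The brain genes had 2 calls for mutant against control with DESeq2 and with 2 groups alone, 1 for rescue against mutant with no filter and on log2(FPKM + 0.1), and 2 for rescue against control with DESeq2. For rescue against control DESeq2 called 4 members and 1026 genes, no filter gave 478 genes and 2 groups alone 11 genes; the cause was not tested.

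By the labels, same-numbered libraries shared only a number. Over all genes tested, their deviations from the group means correlated at 0.0356, 0.0554 and 0.0164 between groups. These values cannot show whether a subset of genes shifted together with library number. With a replicate block, 5 members (1 brain gene) were called for rescue against mutant, and 1 member and 117 genes for rescue against control.

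Signs turned only for differences that were not called. AstC for mutant against control was 0.43 with the block and 0.98 and 0.66 on log2(FPKM + 0.1) and log2(FPKM + 1). Proc was 0.01 with the block and Dh44 0.02 on log2(FPKM + 0.1) for rescue against mutant, and Dsk was -0.02 and Hug -0.01 with 2 groups alone for rescue against control. Leaving out libraries gave, for mutant against control, -1.09 to 3.30 for AstC, -0.32 to 0.43 for Nplp1, -0.88 to 0.48 for Eh, -0.95 to 0.43 for Dsk, -0.22 to 0.57 for Ms and -0.77 to 0.31 for Dh44. For rescue against mutant it gave -0.20 to 0.42 for FMRFa, -0.25 to 0.70 for Pdf, -0.17 to 0.58 for Nplp1, -0.50 to 0.58 for Dh44, -0.24 to 0.25 for Proc, -1.65 to 0.03 for Burs, -0.24 to 0.96 for Dsk and -0.04 to 0.97 for Capa. For rescue against control it gave -3.94 to 0.45 for AstC, -0.90 to 0.97 for Burs, -0.69 to 0.91 for Dsk, -0.55 to 0.24 for Ms, -0.89 to 0.43 for Mip, -0.33 to 0.31 for Dh31, -0.68 to 0.68 for Eh, -0.10 to 0.17 for Hug, -0.89 to 0.07 for Pdf, -0.81 to 0.45 for SIFa, -0.08 to 0.59 for CCHa2, -0.98 to 0.03 for Capa, -0.16 to 0.32 for CCHa1, -0.08 to 0.40 for CCAP and -0.76 to 0.91 for Akh. A lone library left in a group was assumed to vary like the others.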
